A study of Mus musculus with 17 samples.

Results

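The 9 genes Myod1, Myf5, Myog, Myf6, Mef2a, Mef2c, Mef2d, Pax7 and Six4 encode the transcription factors that commit cells to skeletal muscle and drive its differentiation. They were picked by symbol from the deposited gene count table, which holds 15062 genes. A row was matched for 8 of the 9, and Myf6 is not analysed here. All 8 matched genes are in every fit below. RNA had been sequenced from C2C12 cells, a line of mouse myoblasts that proliferate in serum-rich medium and can fuse into muscle fibres in culture. These cells had been grown in medium with fetal bovine serum, and nothing in the labels describes a switch to differentiation medium. The 6 lines expressed pMSCV alone (a retroviral vector, taken as the control), SRF, SRF-FOXO1, SRF-ICA1L, SRF-RELA or SRF-PDGFRB, the last 4 named for SRF and its fusion partner. There were 3 libraries of each line and 2 of SRF-PDGFRB, 17 in all. The series compares these lines in a study of SRF fusions from soft tissue tumours with muscle-like features. The species of the introduced sequences, the promoter that drives them and whether a line was a clone or a pool are not given in the sources used here. The labels also do not say whether replicates were separate cultures, so p-values measure only the spread between these libraries, which may be technical.

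The myogenic regulatory factors Myod1, Myf5, Myog and Myf6 are basic helix-loop-helix (bHLH) proteins that bind short DNA motifs called E-boxes as dimers with E proteins such as Tcf3 and Tcf12. Myf5 and Myod1 set myoblast identity, whereas Myog is switched on as myoblasts stop dividing and fuse. MEF2 proteins carry a MADS-box DNA-binding domain, as SRF does, bind A/T-rich sites and act together with the bHLH factors on muscle genes. Pax7 marks muscle stem cells, and Six4, a homeodomain factor, works with Eya cofactors upstream of the bHLH genes.

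Myog and Mef2c are printed here because both were lower in every library of SRF-ICA1L, SRF-RELA, SRF-FOXO1 and SRF than in any pMSCV library, as described below. RefSeq promoter windows on GRCm38.p6 were matched for 7 of the 9 listed genes. The Myog stretch is chr1:134289754-134289988 on the + strand, directly upstream of the first exon in GENCODE M21, and the Mef2c stretch is chr13:83503784-83504033 on the + strand, directly upstream of its first exon. Capitals mark matches to an E-box (CANNTG) or to a MEF2 core (TA, then 4 bases that are each A or T, then TA); both motifs read the same on either strand and none of the matches overlap.
Myog: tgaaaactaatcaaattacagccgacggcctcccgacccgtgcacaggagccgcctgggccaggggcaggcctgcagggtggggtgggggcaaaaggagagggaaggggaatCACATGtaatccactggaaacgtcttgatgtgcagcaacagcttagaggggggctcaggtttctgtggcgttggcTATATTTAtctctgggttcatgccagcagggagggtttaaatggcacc
Mef2c: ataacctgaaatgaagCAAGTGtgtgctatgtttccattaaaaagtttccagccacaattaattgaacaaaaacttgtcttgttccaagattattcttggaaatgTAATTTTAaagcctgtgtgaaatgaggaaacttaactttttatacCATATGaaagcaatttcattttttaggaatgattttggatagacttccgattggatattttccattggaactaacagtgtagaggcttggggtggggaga
The printed Myog stretch held 1 E-box (CACATG, 138 to 133 bases before the RefSeq start) and 1 MEF2 core (TATATTTA, 63 to 56 bases before it). The last 15 bases of its RefSeq window, within the GENCODE exon, are not printed. They hold another E-box (CAGTTG, 12 to 7 bases before the RefSeq start), so the window of 250 bases held 2. The printed Mef2c stretch held 2 E-boxes (CAAGTG and CATATG) and 1 MEF2 core (TAATTTTA, 145 to 138 bases before the start). Mef2c also has a RefSeq window from 83523406, with 0 matches, and one from 83573357, with 1 E-box (CAGATG) and 0 MEF2 cores. Of 32851 RefSeq windows of 250 bases, 66.2% held an E-box and 8.56% a MEF2 core. A CArG box, the site that SRF binds (CC, 6 bases that are each A or T, then GG), was in 1.47% of those windows and in none of the windows of the listed genes. These matches describe letters only, and binding was not measured.

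Library totals lay between 20901442 and 23543734 counts, and expression is given as CPM, a gene's counts scaled to library size after TMM adjustment. Srf had 81.3 ± 13.7 CPM in pMSCV and 1128 ± 504 CPM in the SRF line (SD, n = 3 each). Its log2 fold change in that line was 3.79 (SE 0.38, Benjamini-Hochberg adjusted p = 0.00158, edgeR quasi-likelihood test). The fusion lines had less of it, 71.8 to 105 CPM for SRF-FOXO1, 121 to 279 for SRF-ICA1L, 85.0 to 155 for SRF-RELA, and 70.5 and 81.4 CPM for SRF-PDGFRB. Srf was not called against pMSCV in any of these 4 lines, so its counts do not check their labels. The same test and adjustment, over all genes tested, stand behind every adjusted p given as edgeR's, and a gene is called where that p is under 0.05. The 6 myoblast markers (Myod1, Myf5, Cdh15, Des, Itga7 and Ncam1) were all detected in every line, with a summed level of 1540 to 1852 CPM in pMSCV, 777 to 1383 in SRF, 307 to 355 in SRF-FOXO1, 510 to 1163 in SRF-ICA1L and 428 to 791 in SRF-RELA. Of 5 fibroblast markers 4 had a row, and their sum ran from 774 to 4628 CPM in pMSCV and from 879 to 7049 CPM in SRF-FOXO1. The fibroblast sum was 972 to 1933 CPM in SRF, 1157 to 2563 in SRF-ICA1L, 1163 to 2976 in SRF-RELA and 443 to 2572 in SRF-PDGFRB. Of 6 smooth muscle and pericyte markers 4 had a row. Most of their sum was Acta2, at 222 to 3902 CPM over the libraries, beside 34.2 to 84.3 CPM of Cspg4. This sum ran from 280 to 2466 CPM in pMSCV and from 1945 to 3405 CPM over the SRF-FOXO1, SRF-ICA1L and SRF-RELA libraries. It was 1044 to 3963 CPM in SRF, which held the highest library, and 1585 to 2028 CPM in SRF-PDGFRB. Summed leukocyte, endothelial and epithelial markers stayed under 8 CPM in every library. The part of these markers in the results was not tested, and in bulk RNA fewer cells of a type and less RNA per cell cannot be told apart.

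The libraries of SRF-PDGFRB stood apart from each other: across genes their log2 CPM correlated at 0.930, and each was nearer to a library of another line (0.984 with SRF-FOXO1 replicate 2 for replicate 1, 0.983 with SRF-ICA1L replicate 3 for replicate 2). Myog had 5 counts in replicate 1 and 1922 counts in replicate 2. Myod1 had 124 and 2495 counts, and Mef2c 10 and 466 counts, in the same order. Replicate 1 lay below all 15 libraries of the other lines for Myod1, Myf5, Myog, Mef2c and Pax7 (5 of 8, against 7.98% of all genes). Replicate 2 lay above all 15 for Myod1, Myog and Mef2a (3 of 8, against 4.89% of all genes). A mean over this pair describes neither library, so SRF-PDGFRB is given library by library. Its spread also enters the variance that all lines share when the 17 libraries are fitted together. Over the 15 other libraries without a block, SRF-FOXO1 against pMSCV was the only comparison in which a member was called.

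Myod1 (ENSMUSG00000009471, chromosome 7, 46376474 to 46379099, + strand), the factor that can turn fibroblasts into muscle, was highest in pMSCV and lowest in SRF-FOXO1. In replicates 1, 2 and 3 of pMSCV it had 61.1, 44.9 and 107 CPM, and in those of SRF 28.3, 25.1 and 73.0 CPM. The SRF-ICA1L libraries held 16.1, 14.6 and 64.4 CPM and the SRF-RELA libraries 13.2, 14.3 and 46.6 CPM. SRF-FOXO1 held 11.8, 6.66 and 10.4 CPM, and SRF-PDGFRB 5.69 and 111 CPM. All SRF-FOXO1 libraries lay below every library of pMSCV, SRF-ICA1L, SRF-RELA and SRF, while the latter 4 lines overlapped, with replicate 3 the highest in each of them. Over the 5 lines with 3 libraries, the order of means was pMSCV, SRF, then SRF-ICA1L, then SRF-RELA and last SRF-FOXO1, and SRF-RELA with SRF-FOXO1 was the only neighbouring pair whose libraries did not overlap.

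Myf5 (ENSMUSG00000000435, chromosome 10, 107482908 to 107486134, - strand), the earliest bHLH gene of the embryonic muscle lineage, followed a similar order. The pMSCV libraries had 19.9, 43.1 and 33.7 CPM, and the SRF libraries 14.2, 19.5 and 29.3 CPM. Those of SRF-ICA1L had 13.6, 14.8 and 25.6 CPM, and those of SRF-RELA 8.57, 10.5 and 15.3 CPM. SRF-FOXO1 held 11.3, 6.75 and 5.22 CPM, and SRF-PDGFRB 4.41 and 32.3 CPM. The SRF-RELA and SRF-FOXO1 libraries all lay below the pMSCV libraries, those of SRF and SRF-ICA1L overlapped with pMSCV, and every neighbouring pair in the order of these 5 means overlapped.

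Myog (ENSMUSG00000026459, chromosome 1, 134289989 to 134292548, + strand), which encodes myogenin, was the member with the widest range. The pMSCV libraries had 11.0, 13.6 and 22.4 CPM, against 2.59, 1.97 and 6.23 CPM for SRF. For SRF-FOXO1 the values were 2.70, 0.234 and 5.26 CPM, for SRF-ICA1L 1.35, 1.52 and 7.37 CPM, and for SRF-RELA 0.979, 2.74 and 1.63 CPM. SRF-PDGFRB held 0.230 and 85.5 CPM. Every library of SRF-ICA1L, SRF-RELA, SRF-FOXO1 and SRF was below every pMSCV library, these 4 lines overlapped with each other, and the level in SRF-PDGFRB replicate 2 was the highest of all 17.

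Mef2c (ENSMUSG00000005583, chromosome 13, 83504034 to 83667080, + strand), the MEF2 gene most tied to differentiating muscle, separated the lines most cleanly. The pMSCV libraries had 29.2, 15.7 and 19.2 CPM, and the SRF libraries 12.04, 9.51 and 9.63 CPM. For SRF-ICA1L the values were 4.77, 3.57 and 7.78 CPM, for SRF-RELA 3.23, 4.06 and 6.53 CPM, and for SRF-FOXO1 5.06, 1.27 and 1.25 CPM. SRF-PDGFRB held 0.459 and 20.7 CPM. The pMSCV libraries were above all SRF libraries, and the SRF libraries were above all SRF-ICA1L, SRF-RELA and SRF-FOXO1 libraries, which overlapped among themselves.

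Mef2a and Mef2d, the more widely expressed MEF2 genes, showed no such order. Mef2a (ENSMUSG00000030557, chromosome 7, 67231163 to 67372858, - strand) ran from 94.6 CPM in SRF-RELA replicate 1 to 250 CPM in SRF-PDGFRB replicate 2, with a median of 149 CPM. Mef2d (ENSMUSG00000001419, chromosome 3, 88142372 to 88172086, + strand) ran from 113 CPM in SRF-FOXO1 replicate 3 to 259 CPM in SRF-PDGFRB replicate 1, with a median of 168 CPM. For each of these genes every neighbouring pair overlapped in the order of means over the 5 lines with 3 libraries.

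Pax7 (ENSMUSG00000028736, chromosome 4, 139737062 to 139833528, - strand), a marker of satellite cells, was the weakest member. The pMSCV libraries had 0.138, 7.41 and 4.53 CPM, and the SRF libraries 0.136, 2.10 and 3.66 CPM. Those of SRF-ICA1L had 0.578, 4.29 and 6.96 CPM, and those of SRF-RELA 0.245, 2.14 and 2.56 CPM. SRF-FOXO1 held 0.218, 0.703 and 0.223 CPM, and SRF-PDGFRB 0.0459 and 3.83 CPM. In pMSCV, SRF-ICA1L, SRF-RELA and SRF the library of replicate 1 was the low value, with only 3 to 12 counts, and each of the other two held at least 46 counts. Six4 (ENSMUSG00000034460, chromosome 12, 73099609 to 73113456, - strand) ran from 31.1 to 68.9 CPM, and its libraries, like those of Pax7, overlapped between every neighbouring pair of these 5 lines.

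**Figure D1:**
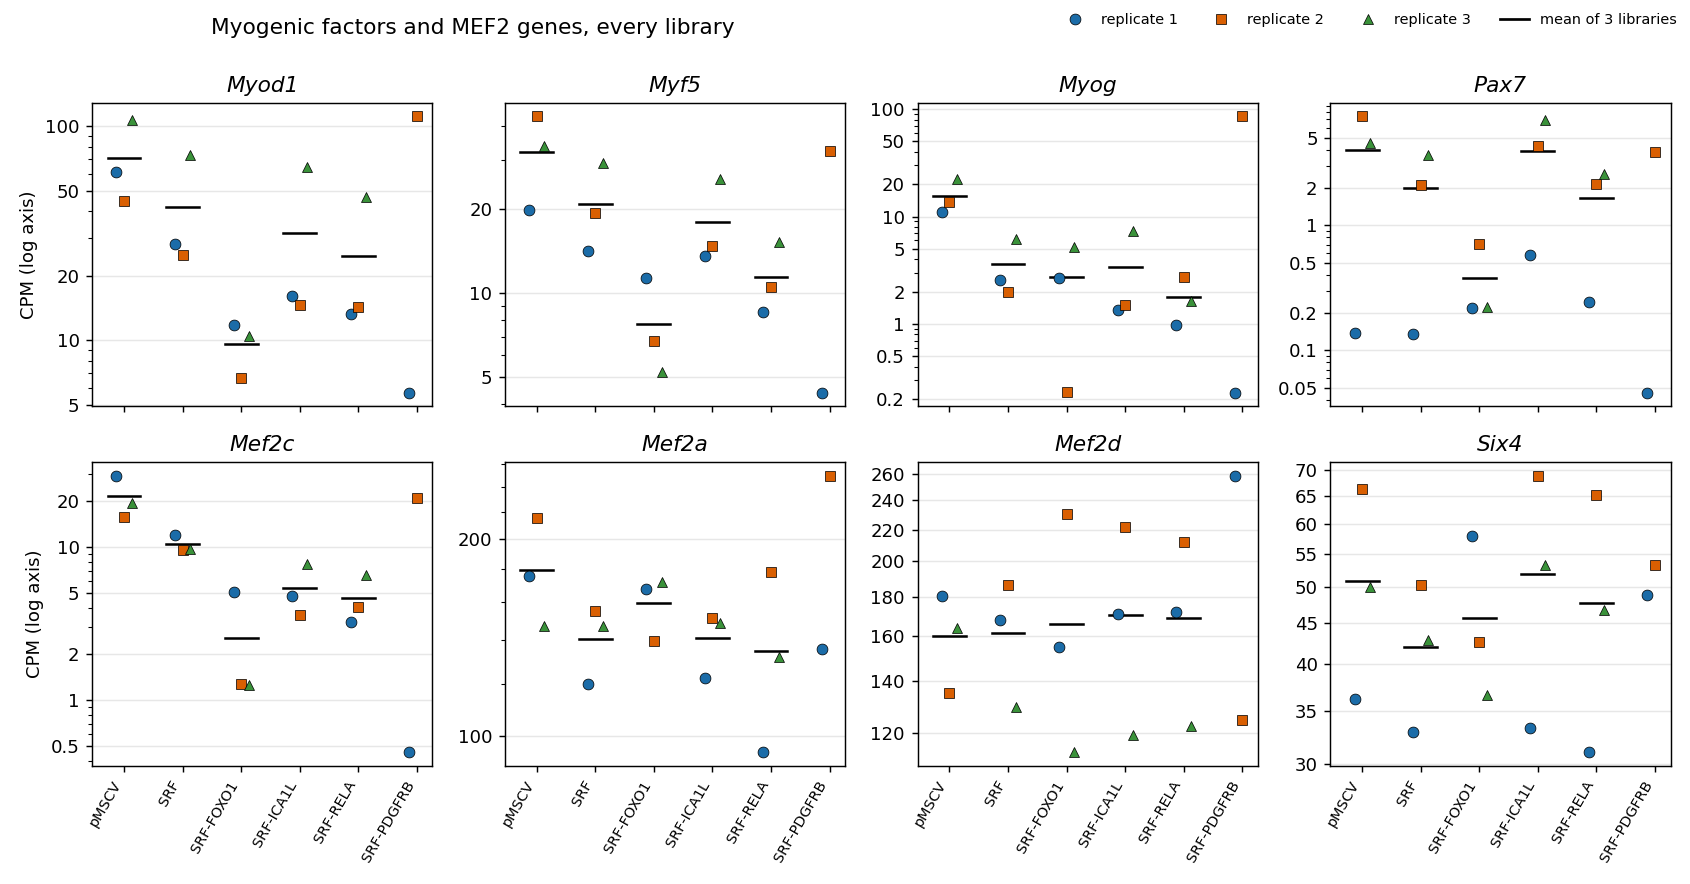
Expression of the 8 genes in each of the 17 libraries (vertical axis, CPM on a log axis, 1 panel per gene; horizontal axis, line; marker shape and colour, replicate number; bar, mean of 3 libraries, not drawn for SRF-PDGFRB). Myog and Mef2c in pMSCV lie above SRF-ICA1L, SRF-RELA, SRF-FOXO1 and SRF, and SRF-PDGFRB replicate 1 is the lowest of 17 for Myod1, Myf5, Myog, Mef2c and Pax7, while replicate 2 is the highest for Myod1 and Myog among these 5.

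Per kilobase of the union of GENCODE M21 exons, the levels of different genes can be set side by side. In pMSCV, Myod1 was at 38.1 ± 17.3 CPM per kb, Mef2d at 26.7 ± 3.85, Myf5 at 15.5 ± 5.60, Mef2a at 12.2 ± 2.33 and Myog at 10.5 ± 4.01 CPM per kb (SD, n = 3). Six4 was at 4.69 ± 1.39, Mef2c at 1.36 ± 0.45 and Pax7 at 0.687 ± 0.625 CPM per kb (SD, n = 3). In SRF-FOXO1 the order differed: Mef2d was at 27.8 ± 9.91 and Mef2a at 10.9 ± 1.19 CPM per kb, above Myod1 at 5.18 ± 1.43 and Myf5 at 3.73 ± 1.53 CPM per kb (SD, n = 3). Mef2d was thus below the mean of Myod1 in pMSCV and above it in SRF-FOXO1. Exon unions are long for Mef2a and Mef2c, which have many annotated exons, so these values depend on the annotation.

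SRF was compared with pMSCV to see whether SRF alone moved these genes. No member was called by edgeR over the 17 libraries (0 of 8, against 0.00664% of all genes). None had an unadjusted p under 0.05 (against 3.34% of all genes), and DESeq2 called none. The log2 fold changes were -2.12 (SE 1.27) for Myog, -1.04 (SE 0.83) for Mef2c, -0.75 (SE 0.85) for Myod1, -0.62 (SE 0.56) for Myf5 and -1.03 (SE 1.36) for Pax7. The members Myog and Mef2c were lower in every SRF library than in any pMSCV library (2 of 8, against 5.15% of all genes). Within replicate numbers, Myod1 was lower in SRF in 3 of 3 pairs, by 0.55 to 1.11 on the log2 scale, and Myog in 3 of 3 pairs, by 1.83 to 2.73. Same-numbered libraries of pMSCV, SRF-ICA1L, SRF-RELA and SRF deviated together, so these 12 libraries were also fitted with the replicate number as a block. That fit called no member in SRF either (0 of 8, against 0.0137% of 14639 genes), while 7 of 8 had an unadjusted p under 0.05, all of them with negative fold changes, against 15.1% of all genes in either direction. Without pMSCV replicate 3 the same fit called 1 member, Myod1, with a log2 fold change of -1.09, against 0.524% of all genes called lower.

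SRF-FOXO1 held the lowest mean levels of Myod1, Myf5, Mef2c and Pax7 among the 5 lines with 3 libraries. In the fit of all 17 libraries the log2 fold changes against pMSCV were -3.08 (SE 0.90) for Mef2c, -2.88 (SE 0.92) for Myod1 and -2.05 (SE 0.58) for Myf5. They were -2.52 (SE 1.29) for Myog and -3.39 (SE 1.53) for Pax7. None of the 8 was called (adjusted p from 0.0789 for Myf5 to 0.283 for Myog among these 5, edgeR), against 0.71% of all genes. At an unadjusted p under 0.05 there were 4 members, Pax7, Myod1, Myf5 and Mef2c, against 20.9% of all genes. All SRF-FOXO1 libraries lay below all pMSCV libraries for Myod1, Myf5, Myog and Mef2c (4 of 8, against 11.6% of all genes lower in every library). DESeq2 called 3 members, Mef2c (adjusted p = 0.00471), Myf5 (adjusted p = 0.00732) and Myod1 (adjusted p = 0.00877), all lower, against 4.65% of all genes called lower.

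By edgeR the 2 groups fitted alone gave 0 called members. Fitted over the 15 libraries without SRF-PDGFRB, an alternative added after the data had been seen, Mef2c, Myf5 and Myod1 fell (3 of 8, against 2.33% of 14948 genes called lower). Their log2 fold changes were nearly the same as before, -3.08 (SE 0.54, adjusted p = 0.0110) for Mef2c, -2.05 (SE 0.40, adjusted p = 0.0182) for Myf5 and -2.88 (SE 0.70, adjusted p = 0.0375) for Myod1 (edgeR quasi-likelihood, Benjamini-Hochberg adjusted). In fold terms Mef2c was 8.45 times, Myod1 7.36 times and Myf5 4.15 times lower in SRF-FOXO1 than in pMSCV. Myog (adjusted p = 0.125) and Pax7 (adjusted p = 0.172) were not called in that edgeR fit. The replicate numbers of SRF-FOXO1 did not pair with those of pMSCV, so the fit with a block is given for this comparison only among the alternatives.

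SRF-ICA1L against pMSCV gave 0 called members of 8 in the fit of 17 libraries, against 0.0% of all genes, and DESeq2 called none. Mef2c alone had an unadjusted p under 0.05 (1 of 8, against 6.23% of all genes), with a log2 fold change of -1.99 (SE 0.86). Myog and Mef2c were lower in every SRF-ICA1L library than in any pMSCV library (2 of 8, against 5.54% of all genes). With the replicate block in the 12 paired libraries 3 of 8 members fell, against 1.65% of 14639 genes called lower. Mef2c fell by 2.01 (SE 0.30, adjusted p = 0.0110), Myod1 by 1.41 (SE 0.20, adjusted p = 0.00902) and Myog by 2.44 (SE 0.46, adjusted p = 0.0221) on the log2 scale (edgeR quasi-likelihood, Benjamini-Hochberg adjusted). Myf5 had a log2 fold change of -0.85 (SE 0.20, adjusted p = 0.0548) in that edgeR fit, and Pax7 one of 0.18 (SE 0.40), where the fit of 17 libraries gave -0.03 (SE 1.34). These calls were fragile: the count with the block was 1 when pMSCV replicate 1 was left out (against 0.255% of all genes called lower) and 0 when replicate 1 or 2 of SRF-ICA1L was (against 0.221% and 0.0876%). The log2 fold change of Myog with the block was -3.12 without SRF-ICA1L replicate 3. With a block over all 15 libraries other than SRF-PDGFRB no member was called, against 0.274% of all genes called lower. In the 12 libraries without the block the adjusted p was 0.179 for Mef2c, 0.467 for Myog and 0.840 for Myod1 by edgeR, none called.

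SRF-RELA against pMSCV likewise gave 0 called members of 8 without a block, against 0.0% of all genes, and DESeq2 called none. Myf5, Mef2c and Myog had an unadjusted p under 0.05 (3 of 8, against 8.05% of all genes), and the same 3 were lower in every SRF-RELA library than in any pMSCV library (against 5.91% of all genes). With the replicate block in the 12 paired libraries 4 of 8 members fell, against 3.29% of 14639 genes called lower. Myog fell by 3.04 (SE 0.48, adjusted p = 0.00687), Mef2c by 2.20 (SE 0.30, adjusted p = 0.00392), Myod1 by 1.69 (SE 0.20, adjusted p = 0.00310) and Myf5 by 1.48 (SE 0.21, adjusted p = 0.00418) on the log2 scale (edgeR quasi-likelihood, Benjamini-Hochberg adjusted). In fold terms Myog was 8.21 times, Mef2c 4.60 times, Myod1 3.22 times and Myf5 2.80 times lower. The count stayed at 4 when any of the 6 pMSCV or SRF-RELA libraries was left out of the fit with the block, with log2 fold changes of Myog from -3.86 (without SRF-RELA replicate 2) to -2.56 (without SRF-RELA replicate 3). With a block over the 15 libraries without SRF-PDGFRB it was 2, Myod1 (adjusted p = 0.0273) and Mef2c (adjusted p = 0.0351), against 1.3% of all genes called lower, while Myog (adjusted p = 0.0552) and Myf5 (adjusted p = 0.0628) were not called by edgeR. With a block over all 17 libraries it was 0 by edgeR, with adjusted p of 0.310 or more for each member, against 0.0% of all genes. Pax7 had a log2 fold change of -1.10 (SE 0.42, adjusted p = 0.156) in the edgeR fit of the 12 libraries with the block. Mef2d and Six4 were not called either, with log2 fold changes of 0.04 (SE 0.19) and -0.10 (SE 0.11), and Mef2a, which was not called, lay between 94.6 and 178 CPM in SRF-RELA against 147 to 215 CPM in pMSCV.

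**Figure D2:**
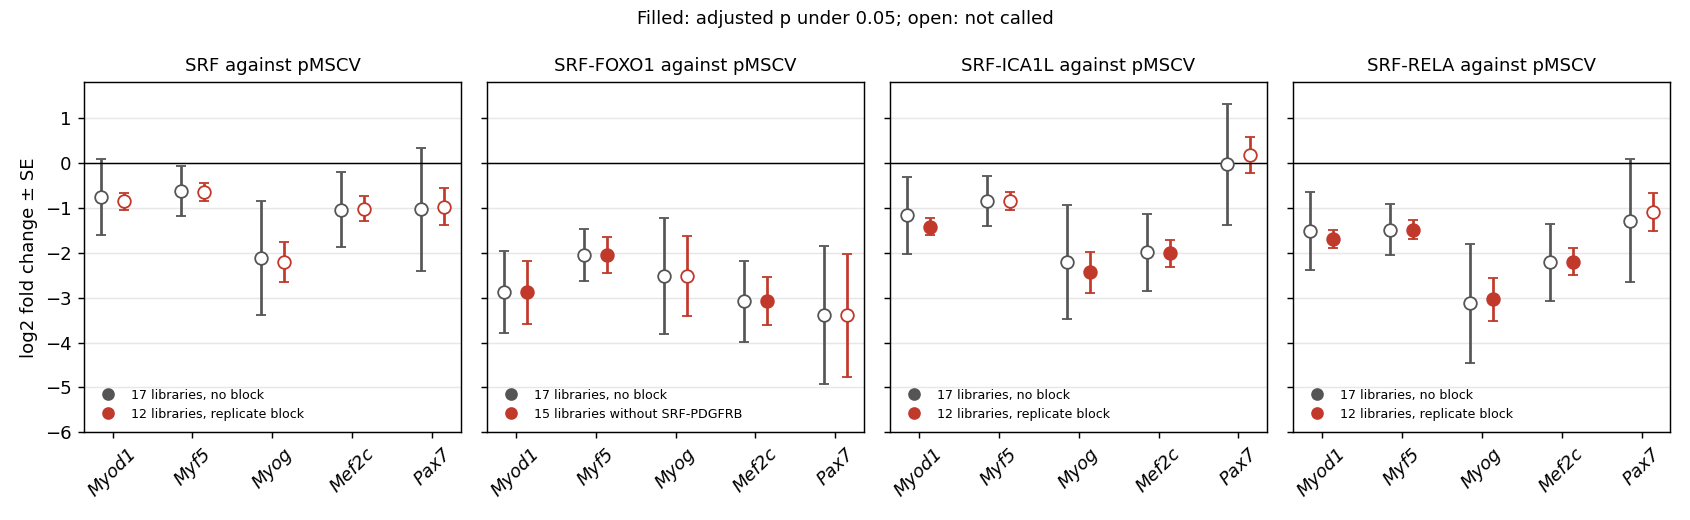
Log2 fold change against pMSCV (vertical axis, with SE bars) of Myod1, Myf5, Myog, Mef2c and Pax7 in 4 lines; grey, all 17 libraries with no block; red, the 12 paired libraries with a replicate block or, for SRF-FOXO1, the 15 libraries without SRF-PDGFRB; filled, adjusted p under 0.05. The SE bars are shorter in the second fit, where Myod1 in SRF-ICA1L is at -1.41 and not -1.16 and Pax7 there at 0.18 and not -0.03, and filled points appear for 3 genes in SRF-FOXO1, 3 in SRF-ICA1L and 4 in SRF-RELA. The fit of the 12 libraries differs from the grey one in the lines left out as well as in the block.

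All 4 of these comparisons share the pMSCV libraries, so their values are set side by side without a test of their likeness. For Mef2c the log2 fold change was -1.04 in SRF, -1.99 in SRF-ICA1L, -2.21 in SRF-RELA and -3.08 in SRF-FOXO1. For Myod1 it was -0.75, -1.16, -1.52 and -2.88 in the same order of lines. The median over the 8 members was -0.69 in SRF, -0.59 in SRF-ICA1L, -1.39 in SRF-RELA and -2.28 in SRF-FOXO1, where the median over all genes was between -0.02 and 0.00.

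SRF-PDGFRB against pMSCV had 0 called members of 8, against 0.0199% of all genes. None had an unadjusted p under 0.05 (against 7.7% of all genes), DESeq2 called none, and no member was lower in every library (against 7.23% of all genes). Without replicate 2, Mef2c had a log2 fold change of -5.52 (SE 1.03, adjusted p = 0.0404, edgeR) and was the only member called. That value assumes that the lone library varies like those of the other lines. With both libraries the value for Mef2c was -1.01 (SE 0.95). Between the SRF-PDGFRB libraries, replicate 2 was higher by 8.06 on the log2 CPM scale for Myog, 5.24 for Mef2c, 4.84 for Pax7, 4.26 for Myod1 and 2.85 for Myf5. Mef2a was higher by 0.88 and Six4 by 0.12, while for Mef2d replicate 2 had 125 CPM against 259 CPM. At least 2-fold higher in replicate 2 were 5 of 8 members, against 11.2% of all genes.

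**Figure D3:**
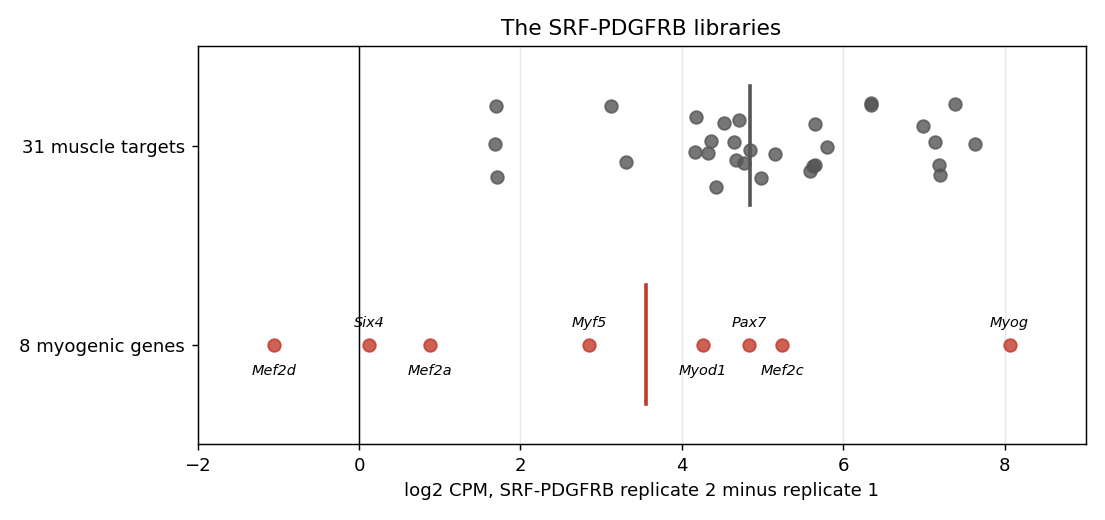
Difference in log2 CPM between SRF-PDGFRB replicate 2 and replicate 1 (horizontal axis) for the 8 myogenic genes and 31 muscle genes that they act on (rows; vertical bars, medians; vertical scatter only separates points). Myog lies farthest to the right among the 8 at 8.06, and all 31 muscle genes lie to the right of 0.

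The fusions were next compared with SRF. The level of Srf differs in these comparisons too, at a log2 fold change of -3.69 in SRF-FOXO1 (adjusted p = 0.00207), -3.17 in SRF-RELA (adjusted p = 0.00986) and -2.55 in SRF-ICA1L (adjusted p = 0.0643, not called) by edgeR, so a fusion and the amount of Srf cannot be told apart. SRF-FOXO1 against SRF gave 0 called members of 8, against 0.00664% of all genes, and DESeq2 called none. Mef2c (log2 fold change -2.04, SE 0.87), Myod1 (-2.13, SE 0.89) and Myf5 (-1.43, SE 0.57) had an unadjusted p under 0.05 (3 of 8, against 19.2% of all genes). The same 3 were lower in every SRF-FOXO1 library than in any SRF library, as were 18.3% of all genes. Same-numbered libraries of SRF and SRF-FOXO1 deviated together, and the block fitted in these 2 groups still called no member (0 of 8, against 1.57% of all genes), with adjusted p = 0.0517 for Myod1 and 0.0524 for Mef2c by edgeR. A block over the 15 libraries without SRF-PDGFRB was also fitted, after the data had been seen. It treats SRF-FOXO1 as paired with pMSCV, SRF-ICA1L and SRF-RELA, a pairing that these data did not show. In that fit 3 of 8 members fell, against 4.41% of all genes called lower. Myod1 fell by 1.90 (SE 0.33, adjusted p = 0.0114), Mef2c by 2.15 (SE 0.47, adjusted p = 0.0207) and Myf5 by 1.32 (SE 0.38, adjusted p = 0.0462) on the log2 scale by edgeR. Without a block none was called over those 15. SRF-ICA1L against SRF had 0 called members (against 0.0% of all genes), 0 with an unadjusted p under 0.05 (against 1.56%), and 1 lower in every library, Mef2c (against 3.2%), with a log2 fold change of -0.95 (SE 0.84). SRF-RELA against SRF had 0 called members (against 0.00664%), 0 with an unadjusted p under 0.05 (against 3.21%), and 1 lower in every library, again Mef2c (against 5.04%), with a log2 fold change of -1.17 (SE 0.84). The block in the 12 libraries called no member in either of these comparisons (0 of 8 against 0.0956% of 14639 genes for SRF-ICA1L and 0.656% for SRF-RELA), and DESeq2 called none. Of the genes on the lists described below, the fit with that block called Lbx1 lower than in SRF in both lines. In SRF-RELA it also called Cdh15 and Chrnd lower and Prkd1 higher than in SRF.

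Between fusions no member was called by edgeR over the 17 libraries or by DESeq2. SRF-FOXO1 lay below SRF-ICA1L in every library for Myod1 and Myf5 (2 of 8, against 5.47% of all genes lower in every library and 0.0% called), and 1 member, Pax7, had an unadjusted p under 0.05 (against 5.94%). It lay below SRF-RELA in every library for Myod1 (1 of 8, against 2.53% lower in every library and 0.0% called), and none had an unadjusted p under 0.05 (against 2.51%). For SRF-ICA1L against SRF-RELA, 0 of 8 members were called, with or without the block, against 0.0% of all genes, and none had an unadjusted p under 0.05 (against 0.159%). Comparisons with SRF-PDGFRB carry its split. Against SRF no member was called (against 0.0531% of all genes), and Myog alone had an unadjusted p under 0.05 (1 of 8, against 5.03%), with 0.230 and 85.5 CPM in the SRF-PDGFRB pair. Against SRF-PDGFRB no member was called in SRF-FOXO1 (3 with an unadjusted p under 0.05, against 3.87% of all genes and 0.0266% called), in SRF-ICA1L (1, against 2.2% and 0.0332%) or in SRF-RELA (1, against 2.7% and 0.00664%).

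For Pax7, Six4, Myod1, Mef2a and Mef2d the replicate number held more of the variance than the line did in the 12 libraries whose numbers paired. In the 12 libraries of pMSCV, SRF-ICA1L, SRF-RELA and SRF a joint test of the replicate numbers called 6 of 8 members, all but Mef2c and Mef2d (edgeR, Benjamini-Hochberg adjusted). It also called 52.0% of 14639 genes, so that count is no property of the members. These 12 libraries were kept because same-numbered ones deviated together, which favours the number in the test and in the shares below. Over the 15 libraries without SRF-PDGFRB the test called 3 members: Six4, Myog, Mef2a and Myf5 lost the call and Mef2d gained one. The share of all genes called over those 15 is not given here. Pax7 stood at 0.274 ± 0.209 CPM in the replicate 1 libraries, 3.98 ± 2.50 in replicate 2 and 4.43 ± 1.87 in replicate 3 (SD, n = 4 lines each, adjusted p = 0.000371 by edgeR). Six4 stood at 33.4 ± 2.12, 62.7 ± 8.40 and 48.3 ± 4.43 CPM in the same order (SD, n = 4 lines each, adjusted p = 0.000469 by edgeR). Of the variance of log2 CPM in these 12 libraries, the number held 87.6% for Pax7 and 88.8% for Six4, and the line 7.22% and 7.25%. For Myod1 the number held 54.9% and the line 41.2%, with 29.7 ± 21.9 CPM in replicate 1, 24.7 ± 14.3 in replicate 2 and 72.7 ± 25.3 in replicate 3 (SD, n = 4 lines each). Mef2c was the member most tied to the line, which held 85.1% of its variance against 5.08% for the number, followed by Myog with 72.1% and 16.2%. The medians over all genes were 19.5% for the line and 49.6% for the number. What a replicate number marks is not given in the sources used here.

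**Figure D4:**
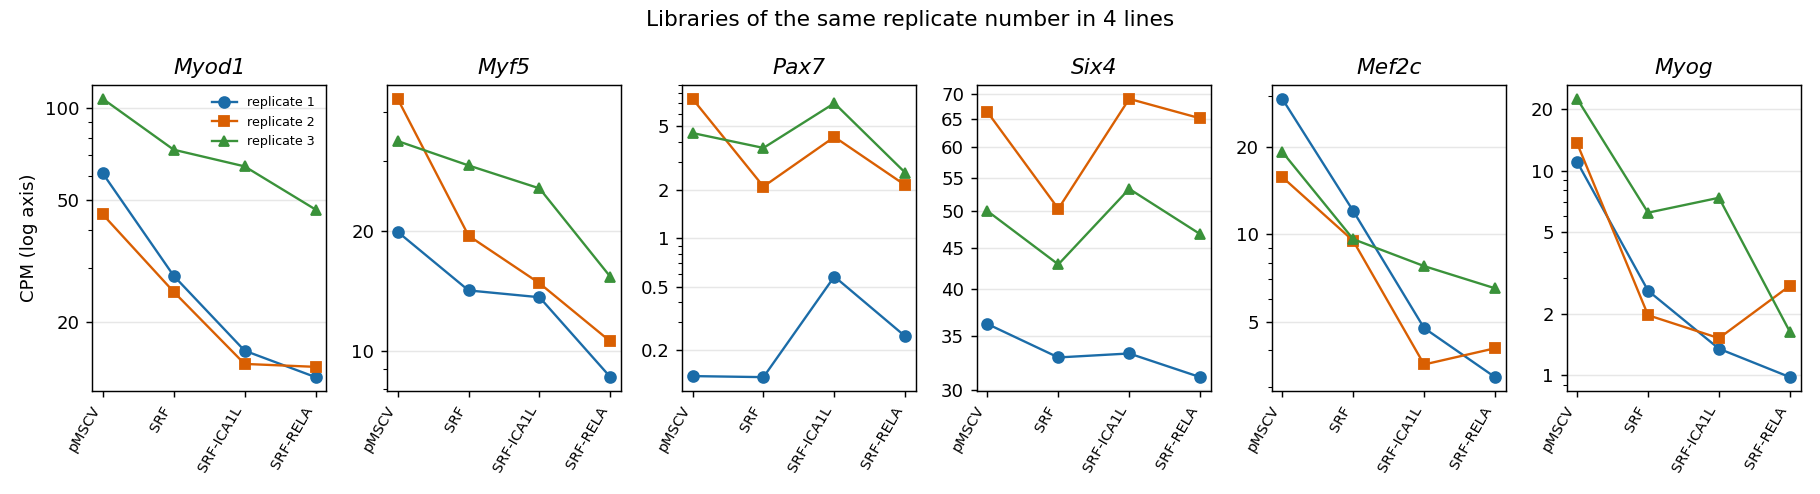
CPM (vertical axis, log) of 6 genes in the 4 lines whose same-numbered libraries deviated together; lines join libraries of the same replicate number. For Pax7 and Six4 replicate 1 is lowest in every line, and for Pax7 the curves of replicates 2 and 3 cross, whereas those of Mef2c and Myog are highest in pMSCV for all 3 numbers.

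The genes that work with the members were read from lists of known partners, inhibitors, regulators and targets. Of the 3 E-protein genes, partners of the bHLH factors, none was called in the fit of 17 libraries or with the block in the 12. DESeq2 called 1, Tcf3, lower in SRF-FOXO1, against 4.65% of all genes called lower. Tcf3 had 94.1 to 127 CPM there and 132 to 173 CPM in pMSCV. Tcf12, the most abundant, had a mean of 198 ± 18.4 CPM in pMSCV, 188 ± 15.2 in SRF-FOXO1 and 177 ± 20.2 in SRF-RELA (SD, n = 3 each). Of 12 measured bHLH inhibitors of 15 listed, none was called in the fit of 17 libraries. With the block in the 12 libraries 2 fell in SRF-RELA, 1 in SRF-ICA1L and 0 in SRF. Of all genes, that fit called 3.29% lower in SRF-RELA, 1.65% lower in SRF-ICA1L and 0.0137% in either direction in SRF. Hey1, a Notch-driven repressor, fell by 2.08 (SE 0.29, adjusted p = 0.00418) in SRF-RELA and by 1.65 (SE 0.29, adjusted p = 0.0164) in SRF-ICA1L on the log2 scale by edgeR. Over all alternatives its log2 fold change ran from -3.51 to -0.71 in SRF-RELA and from -3.15 to -0.22 in SRF-ICA1L, nearest to 0 without pMSCV replicate 2 and no block. The call in SRF-ICA1L was lost when pMSCV replicate 1 or either of replicates 1 and 2 of SRF-ICA1L was left out. In SRF-FOXO1 DESeq2 called Hey1, Heyl and Msc lower (3 of 12, against 4.65% of all genes called lower). Msc, which encodes the bHLH repressor musculin, fell by 2.11 (SE 0.54, adjusted p = 0.0437 by edgeR) in SRF-RELA, from 0.617 to 1.75 CPM in pMSCV to 0.0979 to 0.466 CPM, and kept the call only when pMSCV replicate 2 was the library left out.

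Of 10 measured MEF2 regulators of 11 listed, none was called in the fit of 17 libraries and Prkd1 alone with the block in the 12. Prkd1, a kinase that phosphorylates class II histone deacetylases and so releases MEF2, rose by 3.10 (SE 0.43, adjusted p = 0.00397) in SRF-RELA and by 2.55 (SE 0.43, adjusted p = 0.0153) in SRF-ICA1L on the log2 scale by edgeR. Over all alternatives the log2 fold change ran from 1.86 to 4.43 in SRF-RELA and from 1.02 to 3.87 in SRF-ICA1L, lowest without replicate 2 of that line and highest without pMSCV replicate 2, with no block. The SRF-ICA1L call was lost without pMSCV replicate 1 or 2 or SRF-ICA1L replicate 2. Hdac4, Hdac5, Hdac7 and Hdac9, which encode such deacetylases, are on the list too, and none of those measured was called. Of 10 measured genes of 15 on the list of Eya, Pax, Pitx and other factors upstream of the bHLH genes, 2 fell and 1 rose in SRF-RELA, and 2 fell in SRF-ICA1L, all with the block. Of all genes, that fit called 3.29% lower in SRF-RELA and 1.65% lower in SRF-ICA1L. Lbx1, a homeobox gene of migrating muscle precursors, fell by 2.64 (SE 0.23, adjusted p = 0.000995) in SRF-RELA and by 2.79 (SE 0.23, adjusted p = 0.000906) in SRF-ICA1L by edgeR, and kept both calls whichever library was left out of the fit with the block. Its log2 fold change ran from -3.62 to -1.60 in SRF-RELA and from -3.83 to -1.77 in SRF-ICA1L over all alternatives, nearest to 0 without pMSCV replicate 1 and no block. Vgll2, a TEAD cofactor of skeletal muscle, fell by 2.33 (SE 0.38, adjusted p = 0.00773) in SRF-RELA and by 2.32 (SE 0.37, adjusted p = 0.0133) in SRF-ICA1L by the same edgeR test. The latter call depended on the same 3 libraries as that of Hey1, and the log2 fold change ran from -3.23 to -1.75 and from -3.42 to -1.56 over all alternatives, nearest to 0 without pMSCV replicate 3 and no block. Over the 15 libraries without SRF-PDGFRB, Vgll2 also fell in SRF-FOXO1, against 2.33% of all genes called lower. Eya4 rose by 0.63 (SE 0.16, adjusted p = 0.0421 by edgeR) in SRF-RELA, a call kept only when pMSCV replicate 2 was the library left out. Of 6 measured genes of cell cycle exit of 7 listed, none was called in the fit of 17 libraries. With the block in the 12, Rbl2, a retinoblastoma relative, rose in SRF-RELA by 0.60 (SE 0.15, adjusted p = 0.0440 by edgeR), and lost the call whichever of the 6 libraries was left out. Over the 15 libraries without SRF-PDGFRB, Rbl2 also rose in SRF-FOXO1.

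Skeletal muscle genes that the members act on were low in the same lines. Of 34 listed, 31 were measured. Their summed level was 2150 to 2881 CPM in pMSCV, 1013 to 1801 in SRF, 738 to 1550 in SRF-ICA1L, 629 to 1169 in SRF-RELA and 404 to 461 CPM in SRF-FOXO1, so that each of these 4 lines lay below pMSCV without overlap. The log2 fold change was negative for 31 of 31 genes in SRF, SRF-ICA1L and SRF-FOXO1 and for 29 of 31 in SRF-RELA. The median was -1.74 in SRF, -1.50 in SRF-ICA1L, -1.70 in SRF-RELA and -2.48 in SRF-FOXO1, beside a median over all genes between -0.02 and 0.00. Over the 17 libraries without a block, Itga7 in SRF-FOXO1 was the only gene of the list called by edgeR in these 4 lines (log2 fold change -2.06, SE 0.36, adjusted p = 0.0336). In SRF-FOXO1 that fit called 0.71% of all genes. No gene of the list was called when replicate 1 or 3 of either pMSCV or SRF-FOXO1 was left out. Over the 15 libraries without SRF-PDGFRB, 13 of the 31 fell in SRF-FOXO1, against 2.33% of 14948 genes called lower.

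With the replicate block in the 12 libraries, 19 of the 31 muscle genes fell in SRF-RELA, 14 in SRF-ICA1L and 1, Chrnd, in SRF, and none rose. Of all 14639 genes, 3.29% were called lower in SRF-RELA, 1.65% lower in SRF-ICA1L and 0.0137% in either direction in SRF. The acetylcholine receptor gene Chrnd fell by 2.86 (SE 0.19, adjusted p = 0.000347) in SRF-RELA, 2.40 (SE 0.19, adjusted p = 0.000848) in SRF-ICA1L and 1.76 (SE 0.19, adjusted p = 0.0125) in SRF by edgeR. Its libraries ran from 60.9 to 148 CPM in pMSCV, from 19.1 to 34.4 in SRF, from 13.2 to 20.3 in SRF-ICA1L and from 8.16 to 19.4 CPM in SRF-RELA. Chrnd lay lower in every library of these 3 lines than in any pMSCV library. Cdh15, which encodes the myoblast adhesion protein M-cadherin, fell by 1.99 (SE 0.22, adjusted p = 0.00209) in SRF-RELA and 1.41 (SE 0.21, adjusted p = 0.0115) in SRF-ICA1L by the same edgeR test. Itga7, the muscle laminin receptor subunit, fell by 1.46 (SE 0.18, adjusted p = 0.00310) and 1.26 (SE 0.18, adjusted p = 0.00946), and Chrnb1, another receptor subunit, by 1.67 (SE 0.22, adjusted p = 0.00340) and 1.35 (SE 0.21, adjusted p = 0.0133), in SRF-RELA and SRF-ICA1L by edgeR. Rapsn, which clusters these receptors, fell by 1.11 (SE 0.14, adjusted p = 0.00324) and 0.65 (SE 0.14, adjusted p = 0.0397), and the embryonic myosin light chain gene Myl4 by 1.87 (SE 0.25, adjusted p = 0.00373) and 1.48 (SE 0.25, adjusted p = 0.0145), in the same 2 lines by edgeR. Chrnd kept its SRF-ICA1L call whichever library was left out, and the other 5 lost theirs without SRF-ICA1L replicate 1 or 2. Chrnb1, Myl4 and Rapsn also lost theirs without pMSCV replicate 1, and Rapsn without pMSCV replicate 3 or SRF-ICA1L replicate 3. All 6 kept their SRF-RELA calls whichever library was left out. Leaving out a library moved the count of fallen muscle genes between 7 and 26 in SRF-RELA, the lowest without SRF-RELA replicate 1 and the highest without SRF-RELA replicate 2. In SRF-ICA1L the count ran from 1, without SRF-ICA1L replicate 1 or 2, to 12, and was 3 without pMSCV replicate 1. In SRF it was 0 to 4, and the Chrnd call was lost without pMSCV replicate 1, SRF replicate 1 or SRF replicate 3. The share of all genes called lower is not given for these fits, so the ranges show only how far calls depend on single libraries. In SRF-PDGFRB all 31 were at least 2-fold higher in replicate 2 than in replicate 1, against 11.2% of all genes. Their median difference was 4.85 in log2 CPM. Replicate 1 lay below the 15 libraries of other lines for 20 of the 31 (against 7.98% of all genes). Replicate 2 lay above those 15 for 23 (against 4.89%).

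Across the 17 libraries the members were correlated to different degrees, as a description of libraries that share lines and replicate numbers. The split SRF-PDGFRB pair, at the ends of the range of Myod1 and Myog, is among them, and its weight was not tested. Pearson's r of log2 CPM was 0.899 between Myod1 and Myf5, 0.894 between Myf5 and Mef2c, 0.882 between Myod1 and Mef2c, and 0.841 between Myod1 and Myog (n = 17 libraries). It was 0.765 between Myf5 and Myog, 0.741 between Myf5 and Pax7 and 0.677 between Myog and Mef2a. Mef2d ran the other way, with r of -0.641 to Myog and -0.599 to Myod1, and Six4 had an r of 0.0741 to Mef2c and 0.628 to Pax7 (n = 17 libraries). Among 11546 genes with a mean of at least 1 CPM, those most like Myod1 were Vgll2 (r = 0.975), Septin9 (0.974) and Daam1 (0.971). Those most like Myf5 were Bves (0.960), Des (0.955) and Slc4a8 (0.948), and those most like Myog were Tnni1 (0.982), Mybph (0.976) and Tmem182 (0.972). Vgll2, Des, Tnni1 and Mybph stand in the lists described above. Those most like Mef2c were Peg3 (0.976), Usp29 (0.975) and Zim1 (0.970), none of them on any list used here. Mef2a was most like Akap6 (0.921), Rhobtb1 (0.890) and Amn1 (0.871), and Mef2d most like Rapgef2 (0.965), Zfp408 (0.961) and Ptpn23 (0.959). Pax7 was most like S1pr3 (0.949), Myrf (0.935) and Thsd4 (0.932), and Six4 most like Smad3 (0.887), Zfp385a (0.876) and Srgap2 (0.874). The genes nearest to Six4 and Mef2a were less close than those nearest to the other 6 members, all by Pearson's r over the same 17 libraries.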

How the data were processed

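Polyadenylated RNA from 17 C2C12 libraries had been sequenced as stranded libraries, per the labels' protocols. The authors deposited raw gene counts, 1 table with a column per library. The submitters' processing notes name FastQC 0.11.8, Trimmomatic 0.39, HISAT2, featureCounts, Subread 2.0.0 and GRCm38. The annotation and the strand setting are not given in the sources used here, so reads of overlapping or antisense genes may be mixed. Every gene in the table reached 10 counts in at least 3 libraries. A symbol was filled in by identifier for 1519 of 1531 rows that lacked one.

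Groups and replicate numbers came from the titles. Counts were scaled with TMM factors (0.957 to 1.04) and passed to the quasi-likelihood test of edgeR 4.0.16 (R 4.3.3, robust dispersions) over all 17 libraries with a term for group, in 15 comparisons. The biological coefficient of variation was 36.5%. P-values were adjusted over all genes by Benjamini-Hochberg and called under 0.05; SE is the fold change over the root of F. Log2 CPM used a prior count of 2. The code was also run on simulated counts with a smaller spread than these data have, so that run does not give its power or error rate here. Alternatives were DESeq2 1.42.0, RLE factors, a stricter filter, the 2 groups alone, replicate blocks and leaving out libraries.

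The members and lists were chosen with earlier results of these data known. Named genes were the members, Srf, up to 6 called genes a list (or the 2 most abundant), and the 3 genes most correlated with each member; Tcf3 and Heyl were named after their values were seen. Deviations from the group mean correlated at 0.392 to 0.789 across genes between same-numbered libraries of pMSCV, SRF-ICA1L, SRF-RELA and SRF, and at 0.114 at most between others, so the pairing comes from these data and not from the labels.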

Additional observations from a re-analysis of the deposited data

How the results depend on the processing

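Shares in brackets are of all genes called lower in the same fit. Where no share is given, a count shows only how calls depend on the fit, not a result about these genes. Under DESeq2, 3 members were called in SRF-FOXO1 against pMSCV (4.65%), where the fit of 17 libraries called 0. There were 3 over the 15 libraries without SRF-PDGFRB (2.33%), 5 when a replicate block was added to those 15 (7.91%), and 1 with the block over all 17 libraries (3.33%). With the replicate block in the 12 paired libraries the count was 3 in SRF-ICA1L (1.65%) and 4 in SRF-RELA (3.29%) against pMSCV, and in the 15 libraries it was 2 in SRF-RELA against pMSCV (1.3%) and 3 in SRF-FOXO1 against SRF (4.41%). The block changed no other call of a member. Leaving out a library, in the fits with and without the block, gave 0 to 1 members in SRF, 0 to 4 in SRF-ICA1L, 0 to 4 in SRF-RELA and 0 to 1 in SRF-PDGFRB against pMSCV. The test of replicate number called 3 members over 15 libraries and 4 to 7 when a library was left out. The fold change of Pax7 in SRF-ICA1L against pMSCV turned from -0.03 to 0.31 with the block over 17 libraries, 0.18 in the 12 and 0.23 in the 15. When a library was left out it ran from -0.73 to 0.75 without a block and from -0.15 to 0.86 with the block in the 12, positive at 0.75, 0.06 and 0.47 (without pMSCV replicates 2 and 3 and SRF-ICA1L replicate 1) and at 0.86, 0.54 and 0.11 (without pMSCV replicate 2 and SRF-ICA1L replicates 2 and 3). The median of the muscle genes in SRF-PDGFRB against pMSCV went from -0.12 to 0.85 without replicate 1 and to -4.95 without replicate 2; the cause was not tested. Against pMSCV, muscle genes called in SRF-FOXO1 were 1 in the fit of 17 libraries, 4 with the stricter filter, 3 with RLE factors and 4 with the 2 groups alone. There were 14 by DESeq2 (4.65%), 9 with the block over 17 (3.33%), and 13 (2.33%) or, with the block, 22 (7.91%) over the 15. By DESeq2 there were 1 in SRF, 1 in SRF-ICA1L and 3 in SRF-RELA, against 0 by edgeR over 17 libraries. With the block over the 15 there were 2 in SRF-ICA1L and 8 in SRF-RELA (1.3%). The stricter filter, RLE factors and the fit of the 2 groups alone changed no count of members. Pax7 and Myog had under 10 counts in some libraries, where sampling error adds to the spread.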
